A study of Saccharomyces cerevisiae with 136 samples.

Results

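The genes nearest to the chromosome ends of budding yeast were followed through replicative age in single cells. A gene was taken as subtelomeric when it lay wholly within 20 kb of either end of a nuclear chromosome in the S288C genome R64 and had values in the deposited table, and the rule leaves out 5 genes by name (YHL047C, YHL040C, YOL158C, YKL220C and YGL256W). The rule gave 168 of the 5997 genes of the table, with 1 to 9 members at each of the 32 ends of the 16 chromosomes. They were set against 5502 internal genes, which lay wholly more than 20 kb from both ends. Another 12 genes crossed the limit and belonged to neither class, as did 6 mitochondrial genes and 304 identifiers that the R64 annotation did not hold. Apart from the genes left out by name and the need for values in the table, the rule used position only. No member and no internal gene lacked reads in all cells, so membership was not independent of detection in these cells.

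The cells were wild-type, otherwise untreated haploid cells on SD agar plates, picked one by one by micromanipulation and sequenced as 1 Smart-seq2 library each. The sample titles call the strain BY4741, whereas the source and strain labels call it BY4742. The study's methods name BY4742 for the single-cell sequencing. There were 37 cells at 2 h after birth, 43 at 16 h and 45 at 36 h. The study's table of cells also divided the older cells by how many generations they had completed, into slowly dividing (S) and fast dividing (F) subgroups, with 17 cells in 16-h/S (5 to 8 generations), 26 in 16-h/F (9 to 12), 18 in 36-h/S (8 to 17) and 27 in 36-h/F (18 to 22). No separate cultures were named, so each group was 1 sample, no test between groups was possible, and every SD below is the spread among cells of that sample. Values are log2 of the normalized count plus 1 unless a sentence names another measure, and differences are between group means on that scale.

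Each cell had between 40883 and 833501 reads on genes, with a median of 263709. The number of genes detected, meaning genes with at least 1 read, averaged 2078 ± 268, 2350 ± 549 and 2229 ± 552 in the 2-h, 16-h and 36-h groups (SD, n = 37, 43 and 45 cells). It was lower in S than in F cells, with 1940 in 36-h/S and 2421 in 36-h/F, so members are given below mostly in relation to the genes detected in the same cell. The alpha-cell receptor gene STE3 had reads in 21 of 37 2-h cells, 22 of 43 16-h cells and 7 of 45 36-h cells. SAG1, the other alpha-cell marker listed with values, had reads in 7, 9 and 9 cells. Among a-cell markers, the receptor gene STE2 had reads in 1, 0 and 0 cells and BAR1 in 2, 5 and 2. LYS2, which is deleted in BY4742, had reads in 3, 2 and 0 cells, with 40 reads in all. Of 6 genes made mainly in newborn daughter cells (DSE1, DSE2, CTS1, SCW11, EGT2 and ASH1), at least 1 had reads in 15 of the 2-h, 32 of the 16-h and 29 of the 36-h cells, and their summed normalized counts ran from 0 over a median of 0 to 620.0 at 2 h, from 0 over 35.8 to 2584 at 16 h and from 0 over 7.20 to 8422 at 36 h. The part of attached daughters in the results below was not tested.

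Subtelomeres are the stretches that adjoin the telomeric repeats. The limit of 20 kb used here sets members by distance and not by function, so genes of general cell function such as PKC1, ERO1 and RET2 are among them. In budding yeast, proteins of the SIR complex, recruited by Rap1 and the Ku heterodimer, spread inward from the telomere and deacetylate histones, so that a gene placed there is often repressed, while other chromatin proteins such as Rpd3, Hda1, Sum1 and Tup1-Cyc8 repress neighbouring stretches. The same stretches hold gene families that have been copied from end to end and that serve alternative sugars, vitamins, metals, aldehydes and cell wall changes. Telomeric silencing in old cells has long been of interest because Sir2, the deacetylase of the SIR complex, promotes replicative lifespan in this organism.

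Many members exist in near-identical copies, which bears on what a read can say about any one of them. The AAD genes, putative aryl-alcohol dehydrogenases, each sit near a different chromosome end, and the 60 bases around the middle of AAD4 are shown with the matching stretch of the other copies, with capitals at the bases that differ from AAD4 (sequences from RefSeq, R64, 5′ to 3′ on the coding strand).
AAD4 (chrIV:18042-18101, minus strand): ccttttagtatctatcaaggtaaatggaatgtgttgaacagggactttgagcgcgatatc
AAD6 (chrVI:14770-14829, minus strand): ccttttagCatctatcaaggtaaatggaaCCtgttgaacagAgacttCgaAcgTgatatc
AAD10 (chrX:727744-727803, plus strand): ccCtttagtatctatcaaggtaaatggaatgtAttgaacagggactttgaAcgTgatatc
AAD14 (chrXIV:16586-16645, minus strand): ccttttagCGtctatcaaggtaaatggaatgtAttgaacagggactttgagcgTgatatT
AAD3 (chrIII:314484-314543, plus strand): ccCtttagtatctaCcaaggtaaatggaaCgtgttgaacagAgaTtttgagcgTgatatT
The stretches differed from AAD4 at 7 bases in AAD6, 4 in AAD10, 5 in AAD14 and 7 in AAD3, and at 32 in the shorter AAD15. Each stretch occurred in 1 place in the genome, so a read across it can be told apart. The helicase genes of the Y′ element show the other extreme. A 60-base stretch of YRF1-4 recurred without any difference in 18 places on 13 chromosomes, within 17 annotated genes of which 12 were members.
YRF1-4 (chrXII:1069131-1069190, plus strand): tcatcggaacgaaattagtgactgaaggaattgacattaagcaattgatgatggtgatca
Reads from this stretch cannot be given to any one end, and how reads with several positions were counted is not given in the sources used here. Of the 168 members, 84 (50%) shared more than 10% of their 50-base subsequences with another place in the genome, against 126 (2.29%) of the internal genes. Another 75 members had no such repeat. In the same windows, 72 of 243 annotated genes had no values and were not analysed here, and 60 of these 72 were repeated by the same limit.

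Members had reads in fewer cells than internal genes. The median member had reads in 11.2% of all cells, and the median internal gene in 32.4%. Only 15 members had reads in at least 50% of the cells, and 76 (45.2%) had reads in 12 cells or fewer, which held for 7.36% of internal genes. No member and no internal gene was without reads in all cells, which is a trait of the table and not of the members. Of the values of members, 80.8% were 0, against 61.9% for internal genes. A value of 0 shows that the transcript was not detected at this depth and not that the gene was silent.

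A larger share of the genes detected in a cell was subtelomeric in older cells. At 2, 16 and 36 h, members made up 11 ± 3.02, 14.8 ± 2.91 and 17.1 ± 3.08 of every 1000 genes detected (SD, n = 37, 43 and 45 cells). The lowest, median and highest 2-h cells were at 6.27, 11.3 and 19.5 per 1000, the 16-h cells at 9.02, 15.2 and 20.4, and the 36-h cells at 10.4, 17.3 and 22.9. The 3 age groups overlapped, but their medians lay in the order of age. Drawn at random, one 36-h cell exceeded one 2-h cell with probability 0.913, one 16-h cell exceeded one 2-h cell with probability 0.820, and one 36-h cell exceeded one 16-h cell with probability 0.703. In absolute numbers, 22.9 ± 6.79, 34.9 ± 10.9 and 37.5 ± 9.10 members were detected per cell at 2, 16 and 36 h.

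**Figure D1:**
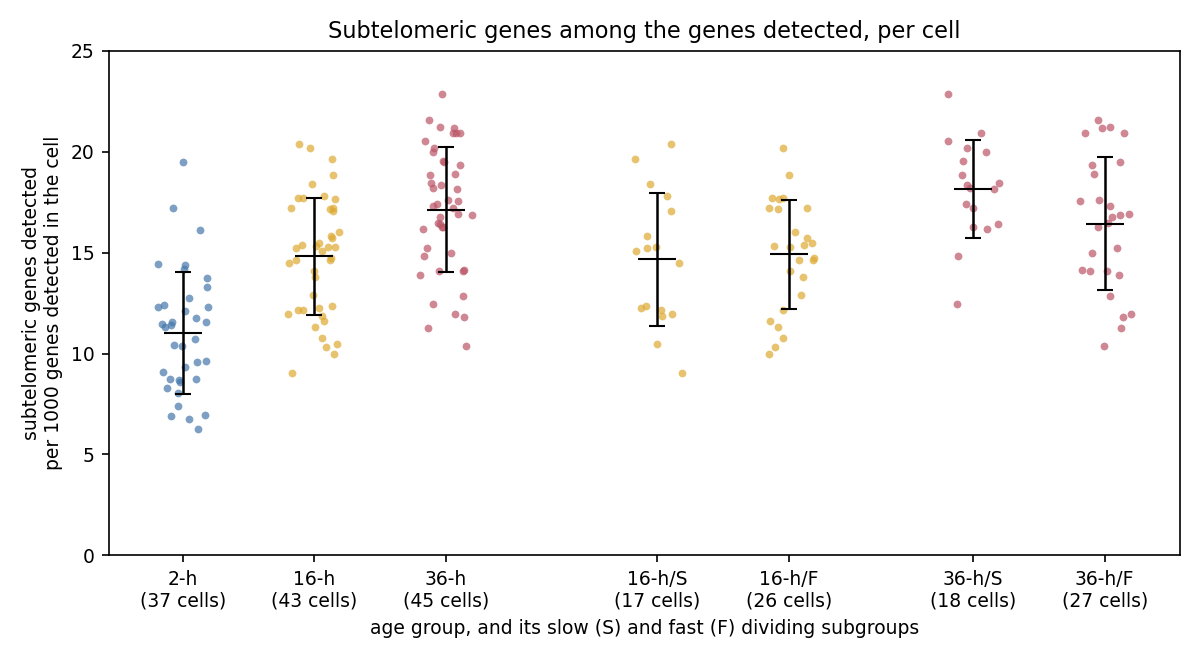
Subtelomeric genes detected per 1000 genes detected (vertical axis) in each cell, 1 point per cell, for the age groups and the S and F subgroups, with the group mean as a line. Means at 2, 16 and 36 h were 11, 14.8 and 17.1, with overlapping ranges, and 18.2 in 36-h/S against 16.4 in 36-h/F.

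The order held among cells with like numbers of genes detected. With fewer than 2000 genes detected, members averaged 10.5 per 1000 in 14 2-h cells, 15.2 in 10 16-h cells and 18.4 in 16 36-h cells. From 2000 to under 2500 genes the values were 11.7 (20 cells), 14.2 (16 cells) and 17 (13 cells), and with 2500 genes or more they were 9.22 (3 cells), 15.2 (17 cells) and 15.9 (16 cells). Put as the share of members detected over the share of internal genes detected in the same cell, the mean ratio in 2-h, 16-h and 36-h cells was 0.382 ± 0.106, 0.515 ± 0.102 and 0.597 ± 0.110. Members thus stayed below internal genes at every age, by a smaller factor in older cells.

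**Figure D2:**
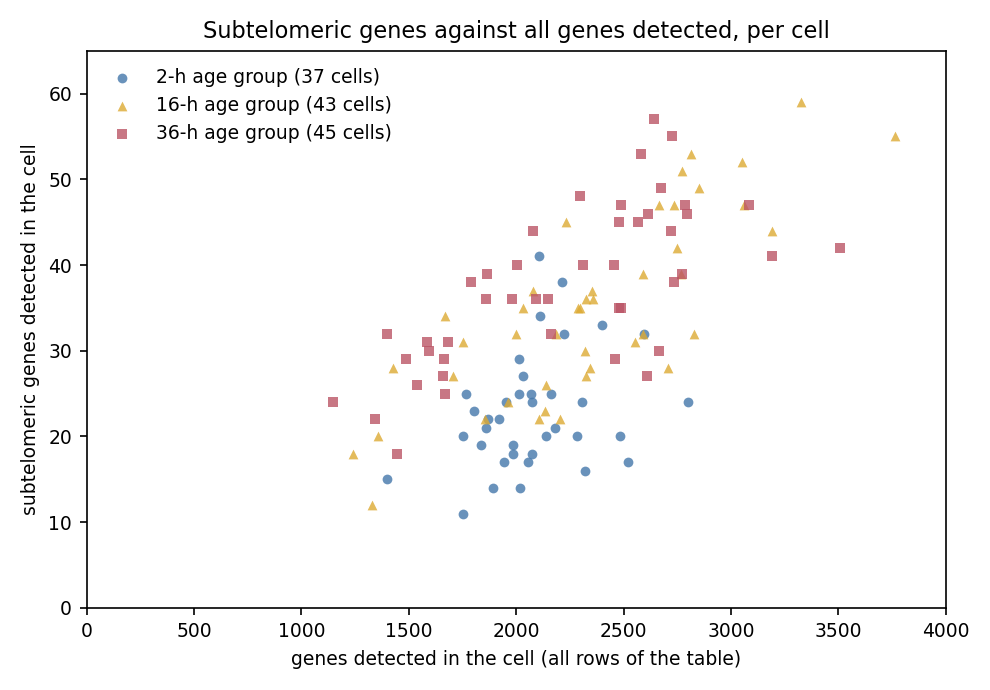
Number of subtelomeric genes detected (vertical axis) against the number of all genes detected (horizontal axis), 1 point per cell, coloured by age group. At like numbers of genes detected, 36-h cells lie above 2-h cells, with 18.4 against 10.5 members per 1000 where fewer than 2000 genes were detected.

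Levels and reads ran in the same order. Over the 168 members, a cell's mean log2 normalized count came to 0.55 ± 0.13, 0.83 ± 0.23 and 1.07 ± 0.22 at 2, 16 and 36 h, while internal genes averaged 1.82, 1.94 and 2.08. The difference of 36-h and 2-h means was 0.52 for members and 0.26 for internal genes. Members took 0.576 ± 0.164%, 0.914 ± 0.230% and 1.52 ± 0.533% of a cell's gene reads in the 3 age groups, with lowest, median and highest cells of 0.280%, 0.604% and 0.973%, of 0.418%, 0.892% and 1.35%, and of 0.529%, 1.42% and 2.57%. A few genes carried these reads. ADH6 alone took 15.5% of all member reads, the top 3 genes (ADH6, YML131W and HXK1) 30.2% and the top 10 61.9%.

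Single members were then counted by the size of their difference. A difference of at least 1 in mean log2 normalized count was used as a rule of size, since there was no test. At 36 h against 2 h, 22 members (13.1%) were higher by at least 1 and none lower, against 18.3% higher and 9.92% lower over all 5997 genes of the table. At 16 h against 2 h, 13 (7.74%) were higher and none lower, against 8.27% and 4.42% of all genes. At 36 h against 16 h, 11 (6.55%) were higher and none lower, against 10.8% and 6.44% of all genes, and with cells scaled to the same sum 9 were higher and 4 lower. As log2 ratios of mean normalized counts, 49.4% of members were higher and 4.76% lower at 36 h against 2 h (37% and 10.4% of all genes), and 19% and 8.33% at 16 h against 2 h (15.8% and 14.8%). How the members compared with all genes thus depended on the scale, and it depended on detection, since rarely detected genes seldom reach a difference of 1. Among genes with reads in 20% to under 50% of all cells, 28.9% of 38 members and 21.9% of 2717 internal genes were higher at 36 h than at 2 h by at least 1, and 0% and 7.95% lower. Among genes in 50% of cells or more, 46.7% of 15 members and 26.1% of 1457 internal genes were higher, and 0% and 24.98% lower. In the class of 5% to under 20%, 4.94% of 81 members and 6.25% of 1184 internal genes were higher. These classes were set by reads in the cells of all ages, the compared groups included. The median difference at 36 h against 2 h was 0.28 for members and 0.23 for internal genes and for all genes, and 82.7% of members against 63.1% of internal genes had a difference above 0. The 36-h and 16-h comparisons share the same 2-h cells.

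Members past the limit and the others both added to detection. At 36 h, a cell had on average 14.6 more members detected than at 2 h, of which the 22 members past the limit gave 6.73 (46.1%) and the other 146 gave 7.87. At 36 h against 16 h, the 11 members past the limit gave 2.30 of the 2.56 added (89.9%) and the other 157 gave 0.26. These are raw numbers, and fewer genes of all kinds were detected per cell on average at 36 h than at 16 h. Per 1000 genes detected, the other 157 were still higher, with 14.15 at 36 h against 13.01 at 16 h. The 22 and the 11 were each picked by the difference under comparison. Without the 22, members still made up 11.7 per 1000 genes detected at 36 h, against 8.54 at 2 h. Between 36-h and 2-h cells, the share of cells with reads favoured the older group for 131 members and the younger one for 37, or 78.0% higher against 56.8% of internal genes. At 16 h against 2 h the share was higher for 129, lower for 34 and equal for 5, or 76.8% higher against 64.5% of internal genes. Among genes with reads in 20% to under 50% of all cells, 38 members averaged 21.3%, 34.6% and 37.3% of cells at 2, 16 and 36 h, and 2717 internal genes in 29.3%, 34.9% and 33.5%. Among genes with reads in 5% to under 20% of cells, 81 members averaged 7.27%, 12.1% and 13.6%, and 1184 internal genes 10.9%, 14.1% and 15.1%. Among the genes in 50% of cells or more, 15 members averaged 54.4%, 71.9% and 69.6%, and 1457 internal genes 71.3%, 75.1% and 68.8%. Internal genes were ahead of members at 2 h in these 3 classes. At 36 h they were ahead only in the class of 5% to under 20%, and members were ahead in the other 2. The classes were set by the share over all cells, these age groups included. Within a class a lower share at 2 h therefore goes with a higher share later, so this order is no separate support. Among the genes in under 5% of cells the 34 members and 144 internal genes were close at 2 h, with 2.15% and 2.14%.

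The largest differences by age are given by the roles of the genes, beginning with dehydrogenases. AAD4 (YDL243C, chrIV:17577-18566) had reads in 3 of 37 2-h cells, 21 of 43 16-h cells and 36 of 45 36-h cells (95% intervals 1.70% to 21.9%, 33.3% to 64.5% and 65.4% to 90.4%, counting error only). Its levels in the 3 age groups were 0.56 ± 1.93, 3.25 ± 3.78 and 6.57 ± 3.73, with medians of 0, 0 and 8.32 and highest cells at 7.68, 10.05 and 10.81. The difference at 36 h against 2 h was 6.01, the largest of the 168 members, although cells at 0 remained in each age group. AAD6 (YFL056C, chrVI:14305-15431) had reads in 8, 21 and 29 cells at 2, 16 and 36 h, with levels of 1.07 ± 2.35, 2.78 ± 3.14 and 3.97 ± 3.28. AAD10 was detected in 1, 5 and 11 cells. At least 1 of the 6 AAD genes had reads in 20 of the 2-h, 35 of the 16-h and all 45 of the 36-h cells. Of the 6, 3 were higher at 36 h than at 2 h by at least 1, against 18.3% of all genes. The 6 differences were uneven, from 0.02 to 6.01 with a median of 0.94.

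YML131W, which resembles medium-chain dehydrogenases, had its far edge 11.3 kb from the left end of chromosome XIII (chrXIII:10198-11295). It had reads in 15, 40 and 41 cells at 2, 16 and 36 h, with levels of 2.03 ± 2.91, 5.55 ± 2.53 and 7.27 ± 2.83, so most of its difference was already there at 16 h. NRE1 (YIR035C, chrIX:421026-421790), a putative short-chain dehydrogenase, had reads in 20, 38 and 35 cells, and its levels of 5.19 ± 2.55 at 16 h and 5.27 ± 3.10 at 36 h lay above 2.82 ± 2.98 at 2 h. ADH6 (YMR318C, chrXIII:911061-912143), an NADPH-dependent alcohol dehydrogenase of broad specificity, was the member with reads in most cells, 36, 42 and 44, and its level differed little, with 7.32 ± 1.84, 7.91 ± 1.71 and 8.02 ± 2.13.

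Genes of glutathione, peroxide and disulfide handling did not move together. GTT1 (YIR038C, chrIX:423809-424513), a glutathione S-transferase, had reads in 15, 25 and 33 cells at 2, 16 and 36 h and a 36-h against 2-h difference of 2.63. ERO1 (YML130C, chrXIII:11483-13174), the thiol oxidase that drives disulfide formation in the endoplasmic reticulum, had reads in 19, 25 and 33 cells and a difference of 1.66. HYR1 (YIR037W, chrIX:423128-423619), a thiol peroxidase that passes the peroxide signal to Yap1, lies next to GTT1. HYR1 had reads in 22, 29 and 27 cells and a difference of -0.19.

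In carbon metabolism, HXK1 (YFR053C, chrVI:253592-255049), a hexokinase that is repressed by glucose, had reads in 5, 14 and 34 cells at 2, 16 and 36 h. Its level was 0.76 ± 2.09, 2.11 ± 3.17 and 6.28 ± 4.07, with a median of 0 at 2 and 16 h and of 7.48 at 36 h. ERR3 (YMR323W, chrXIII:920088-921401), an enolase-related gene whose far edge lay 4.34 kb from its end, had reads in 1 cell at 2 h and in 11 of 45 36-h cells. None of the 43 16-h cells had reads of ERR3, which allows a share of up to 6.98%. DLD3, a cytosolic enzyme of 2-hydroxyglutarate and lactate, had reads in 28, 41 and 37 cells and a 36-h against 2-h difference of 1.28. MSC1 (YML128C, chrXIII:15135-16676), named for sister chromatid recombination in meiosis, had reads in 6, 20 and 35 cells, with levels of 0.72 ± 1.83, 2.65 ± 3.04 and 6.52 ± 4.10, and a difference of 5.80.

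**Figure D3:**
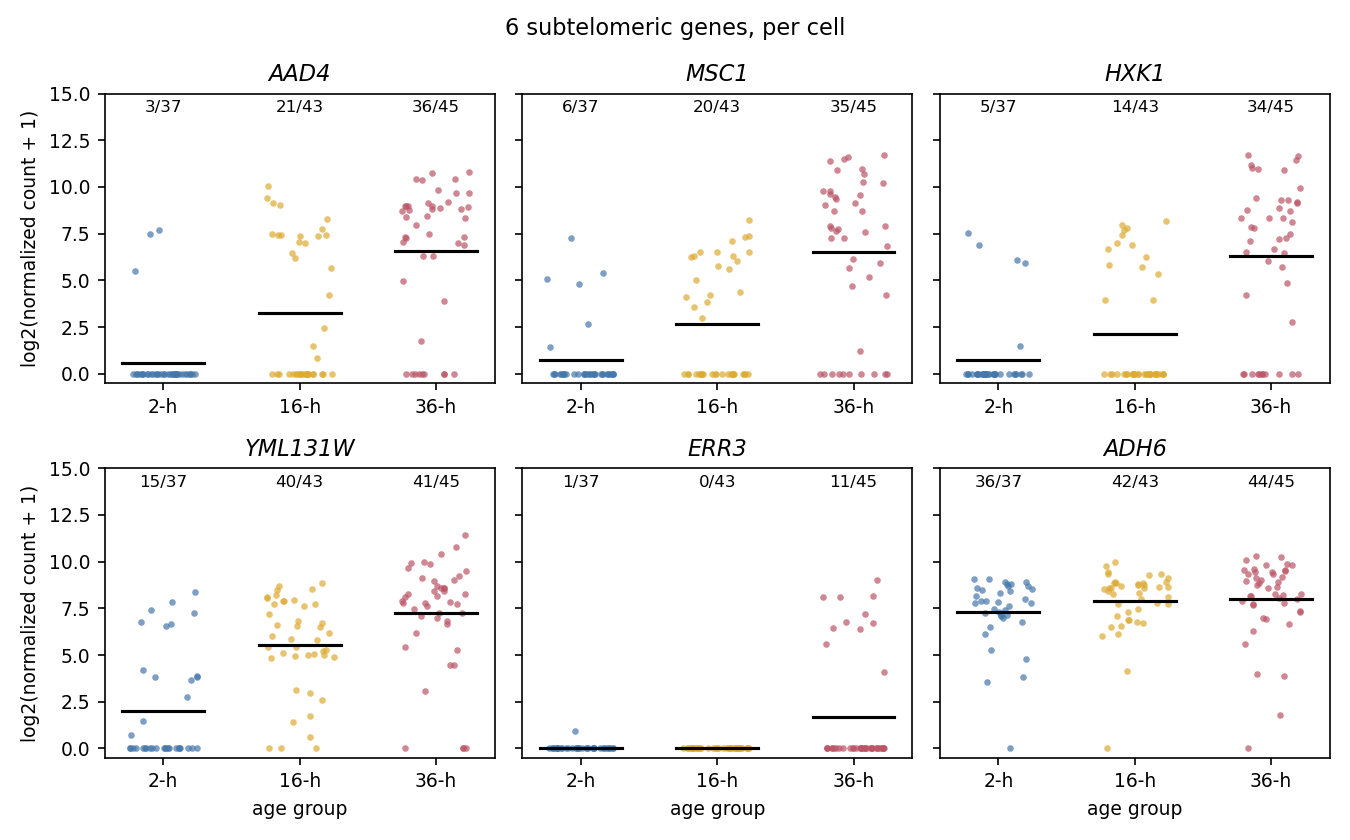
Log2 normalized counts (vertical axis) in each cell, 1 point per cell, of AAD4, MSC1, HXK1, YML131W, ERR3 and ADH6 at 2, 16 and 36 h, with group means as lines and cells with reads of all cells above each column. Cells at 0 remain in each age group for all 6 genes, and AAD4 has reads in 36 of 45 36-h cells, against 3 of 37 2-h cells.

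Other members past the limit at 36 h against 2 h served membranes, transport and signalling. They included PKC1, the kinase of the cell wall integrity pathway (13, 29 and 22 cells at 2, 16 and 36 h, difference 1.21), COX14, an assembly factor of cytochrome c oxidase (difference 1.21), FET4, a low-affinity iron transporter (5, 10 and 19 cells, 1.06), and ARR1, the transcription factor of arsenic resistance (5, 11 and 15 cells, 1.15). MMP1, a permease for S-methylmethionine, had no reads in the 37 2-h cells, which allows a share of up to 8.11%, and reads in 9 cells at 16 h and in 9 at 36 h. FDC1, a decarboxylase of aromatic acids, had reads in 3, 14 and 16 cells and a difference of 1.65. YLR460C (5, 24 and 16 cells) and PKC1 had their highest mean level at 16 h, with 16-h against 2-h differences of 2.14 and 2.1. AAD10, FDC1, YLR460C, PKC1 and FET4 lay outside the rule for named genes and were chosen after their values had been seen.

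No member was lower at 36 h than at 2 h by the limit. The most negative differences among members found in 20% or more of the cells in either age group included IMD2, an IMP dehydrogenase (9, 15 and 5 cells at 2, 16 and 36 h, difference -0.42), MNT2, a mannosyltransferase (14, 16 and 13 cells, -0.32), and HYR1. BDS1, a sulfatase, had reads in 9, 6 and 9 cells and a difference of -0.08.

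The 250 bases that end 100 bases before the start codon are shown for 4 of the 8 members with the largest 36-h against 2-h differences, because they hold matches to sites of stress regulators. Capitals mark the stress response element AGGGG and the Yap1 site TTACTAA, searched on both strands, with no overlapping matches (RefSeq, R64, 5′ to 3′ on the strand of the gene).
MSC1 (chrXIII:16777-17026, minus strand): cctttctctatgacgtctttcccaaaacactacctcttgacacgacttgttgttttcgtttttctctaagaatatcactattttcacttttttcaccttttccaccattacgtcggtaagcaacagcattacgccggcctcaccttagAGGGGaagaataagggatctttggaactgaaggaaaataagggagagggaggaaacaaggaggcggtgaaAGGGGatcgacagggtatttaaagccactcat
HXK1 (chrVI:255150-255399, minus strand): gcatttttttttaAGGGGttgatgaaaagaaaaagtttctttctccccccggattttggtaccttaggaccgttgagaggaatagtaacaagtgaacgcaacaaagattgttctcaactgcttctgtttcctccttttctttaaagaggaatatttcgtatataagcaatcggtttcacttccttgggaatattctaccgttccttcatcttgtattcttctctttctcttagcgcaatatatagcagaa
AAD6 (chrVI:15532-15781, minus strand): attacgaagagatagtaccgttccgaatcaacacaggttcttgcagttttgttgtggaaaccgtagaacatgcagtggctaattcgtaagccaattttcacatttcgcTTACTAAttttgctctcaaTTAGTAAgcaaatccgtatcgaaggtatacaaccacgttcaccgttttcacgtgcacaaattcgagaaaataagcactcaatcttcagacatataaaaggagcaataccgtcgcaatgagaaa
GTT1 (chrIX:424614-424863, minus strand): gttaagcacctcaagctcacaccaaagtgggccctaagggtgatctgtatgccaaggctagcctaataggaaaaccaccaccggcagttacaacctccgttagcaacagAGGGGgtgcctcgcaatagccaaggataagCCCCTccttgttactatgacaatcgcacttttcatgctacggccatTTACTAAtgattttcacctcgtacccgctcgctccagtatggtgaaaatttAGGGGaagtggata
MSC1 held 2 stress response elements, HXK1 1, GTT1 3 with 1 Yap1 site, and AAD6 2 Yap1 sites. ERR3 held 2 stress response elements, and AAD4, YML131W and NRE1 held neither motif in this window. AGGGG occurred in 20.4% of the windows of all 5687 nuclear genes of the table, in 31 of 168 members (18.5%) and in 6 of the 22 members past the limit (27.3%). TTACTAA occurred in 6.12% of all windows, in 8 members (4.76%) and in 4 of the 22 (18.2%). A match is a description of the letters and does not show a working site.

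Counts of repeated families were read for the family and not for the copy. The 5 YRF1 genes, at least 98.0% repeated, had reads in 25 of the 2-h, 35 of the 16-h and 38 of the 36-h cells, with a highest summed normalized count of 13.1, 24.5 and 66.5. YRF1-5, the copy detected most widely, had 211 reads in 78 cells. The 11 COS genes, whose products sort membrane proteins to the vacuole, had reads in 26, 36 and 41 cells, with median summed normalized counts of 9.55, 38.8 and 65.2. COS6 held 3536 of their reads, in 67 cells, and COS1 was higher at 36 h than at 2 h by 1.52 (3, 8 and 18 cells). The 8 PAU genes, seripauperins of the cell wall, had reads in 21, 20 and 33 cells. Maltose and isomaltose genes (7 members) had reads in 12, 20 and 24 cells, thiamine and vitamin B6 genes (7 members) in 12, 18 and 20, and the 3 arsenic resistance genes in 9, 17 and 19. The 3 HSP31-like genes had reads in 0, 6 and 16 cells. HMLALPHA1 and HMLALPHA2, the silent mating-type genes, had reads in 15, 18 and 20 cells together, but their coding sequences are identical over 528 and 633 bases to MATALPHA1 and MATALPHA2, which alpha cells express, so these reads cannot be assigned to the silent locus. The 84 repeated members averaged 11.8%, 18.1% and 20.2% of cells with reads at 2, 16 and 36 h, and the 84 others 15.4%, 23.5% and 24.4%, so both kinds ran in the same direction.

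Detection differed with the distance from the end, counted to the nearer edge of the gene. Genes starting 0 to 5 kb from an end (36 genes) averaged 13.9%, 19.5% and 22% of cells with reads at 2, 16 and 36 h, those at 5 to 10 kb (41) 11.7%, 17% and 17.6%, those at 10 to 15 kb (51) 13.4%, 19.2% and 20.3%, and those at 15 to 20 kb (52, of which 40 were members) 16.1%, 26.6% and 27.8%. Further inside, genes at 20 to 30 kb (131) averaged 24.8%, 30.1% and 29.4%, those at 30 to 50 kb (298) 32.3%, 37.8% and 36.2%, and those beyond 50 kb (5073) 36.2%, 40.7% and 38.4%. The 4 classes inside 20 kb lay below each class outside it at every age. Of the genes higher at 36 h than at 2 h by at least 1, 2 lay at 0 to 5 kb, 3 at 5 to 10 kb, 6 at 10 to 15 kb and 13 at 15 to 20 kb (25% of that class), against 20.6% at 20 to 30 kb and 19% beyond 50 kb. Repeated sequence was concentrated in the outermost genes, with a median of 82.2% of a gene repeated at 0 to 5 kb, 30.2% at 5 to 10 kb, 2.27% at 10 to 15 kb and 0% at 15 to 20 kb. Right at the limit lay RET2, whose far edge was 19999 bases from its end. LYS1, which crossed the limit at 19.2 to 20.3 kb, had a 36-h against 2-h difference of 1.54.

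**Figure D4:**
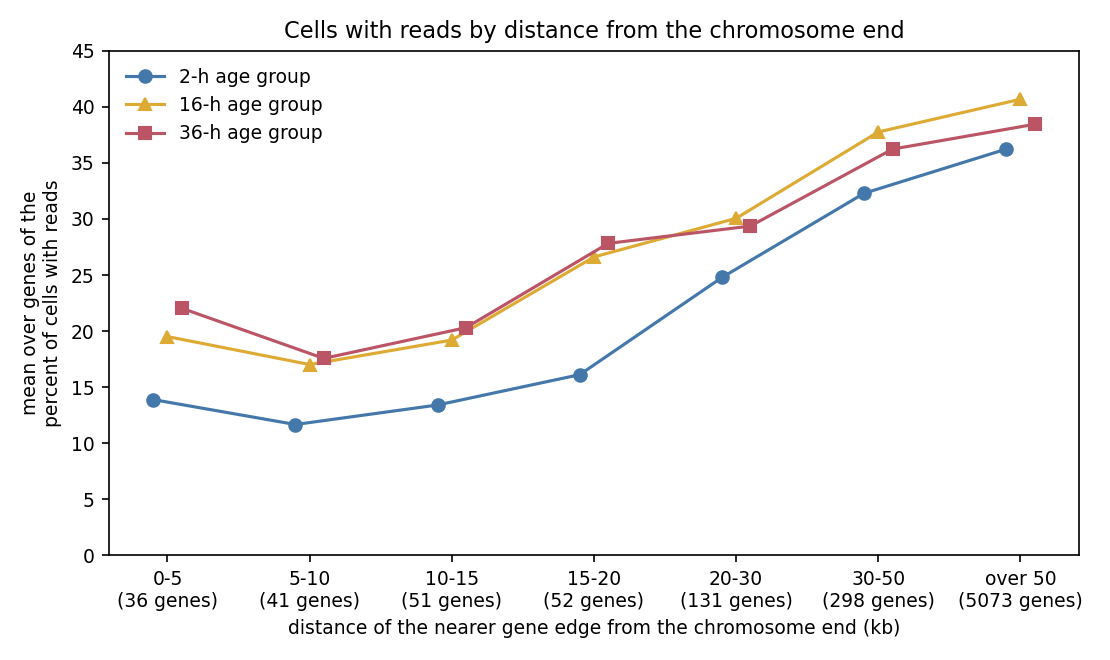
Mean percent of cells with reads (vertical axis) by class of distance of the nearer gene edge from the chromosome end in kb (horizontal axis), at 2, 16 and 36 h. Values inside 20 kb lie between 11.7% and 27.8%, and beyond 50 kb between 36.2% and 40.7%.

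The direction was shared by nearly all chromosome ends. The mean level of the members at an end was higher at 36 h than at 2 h at 31 of 32 ends, and the right end of chromosome XI was the exception, with 0.19 at 36 h and 0.26 at 2 h over 3 members. It was higher at 16 h than at 2 h at 29 ends and higher at 36 h than at 16 h at 26. No like count was made for internal stretches. Internal genes also ran mostly upward, with 63.1%, 58.1% and 56.8% of them above 0 in these 3 comparisons. Sizes were uneven. The left end of chromosome XIII, with ERO1, COX14, MSC1 and YML131W, had levels of 1.11, 2.11 and 3.20 at 2, 16 and 36 h, the right end of chromosome VI, with HXK1 and RET2, 2.03, 2.74 and 3.63, and the left end of chromosome IV, with AAD4, 0.20, 0.72 and 1.43. Only 15 ends held a member past the limit at 36 h against 2 h.

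In members detected per 1000 genes, S and F cells of one age lay closer together than 36-h and 2-h cells did. At 16 h, members made up 14.7 ± 3.27 of 1000 genes detected in S and 14.9 ± 2.71 in F cells (SD, n = 17 and 26), and one S cell drawn at random exceeded one F cell with probability 0.473. At 36 h the values were 18.2 ± 2.44 in S and 16.4 ± 3.31 in F cells (n = 18 and 27), with a probability of 0.646. The 36-h S cells ran from 12.4 to 22.9 and the F cells from 10.4 to 21.6, so the subgroups overlapped nearly over their whole ranges. By number of genes detected, 36-h S and F cells were at 18.1 (10 cells) and 18.8 (6 cells) under 2000 genes, at 17.5 (4) and 16.8 (9) from 2000 to under 2500, and at 18.8 (4) and 15 (12) with 2500 genes or more. The gap was widest with 2500 genes or more, in a class that held 4 S cells. In the lower classes it lay within the SDs among cells. These were 2.83 in S and 2.42 in F cells under 2000 genes, and 2.15 and 3.18 in the middle class. The mean level of the members was the same in 36-h/S and 36-h/F to 0.00, while internal genes were lower in S by 0.22.

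Single members differed in both directions between 36-h S and F cells. In S cells 9 members (5.36%) were higher and 15 (8.93%) lower by at least 1, against 6.35% and 15.5% of all genes. As log2 ratios of mean normalized counts the split was turned round, with 32.7% higher and 12.5% lower in S (28% and 16% of all genes). Of the 9 higher in S, 8 had reads in 16 or fewer of the 45 36-h cells, among them CHA1, the serine and threonine deaminase (4 of 18 S cells and 1 of 27 F cells, difference 1.99), MMP1 (6 and 3 cells, 1.93) and BDS1 (6 and 3 cells, 1.77). The exception was YRF1-5, which had reads in 16 of 18 S cells and 16 of 27 F cells, with levels of 2.22 ± 1.32 and 0.99 ± 1.19. Its few reads lie in repeated sequence and cannot be given to this copy. At so few reads the level depends on the size factor of the cell. The 36-h/S cells had a median of 186022 reads and the 36-h/F cells 325464, and the part of depth was not tested. Those lower in S included genes with reads in most cells. COS1 had reads in 3 S and 15 F cells (difference -2.23), RET2, a subunit of the coatomer of Golgi vesicles, in 9 and 23 (-2.11), NRE1 in 10 and 25 (-2.05), GTT1 in 10 and 23 (-1.78), HXK1 in 11 and 23 (-1.76) and YML131W in 14 and 27 (-1.71). AAD4, by contrast, had reads in 12 S and 24 F cells with a difference of -0.59. The share of cells with reads was higher in S than in F for 44% of members and for 25.7% of internal genes.

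At 16 h, 1 member was higher and 5 (2.98%) lower in S than in F by at least 1, against 3.62% and 11.1% of all genes. AAD4 was the one higher in S, by 1.36. Lower in S were the uncharacterized YER186C (-1.66), RET2 (-1.56), AAD6 (-1.36), YLR460C (-1.34) and FET4 (-1.27). RET2 was lower in S at both ages, and AAD4 had opposite signs at 16 and 36 h.

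**Figure D5:**
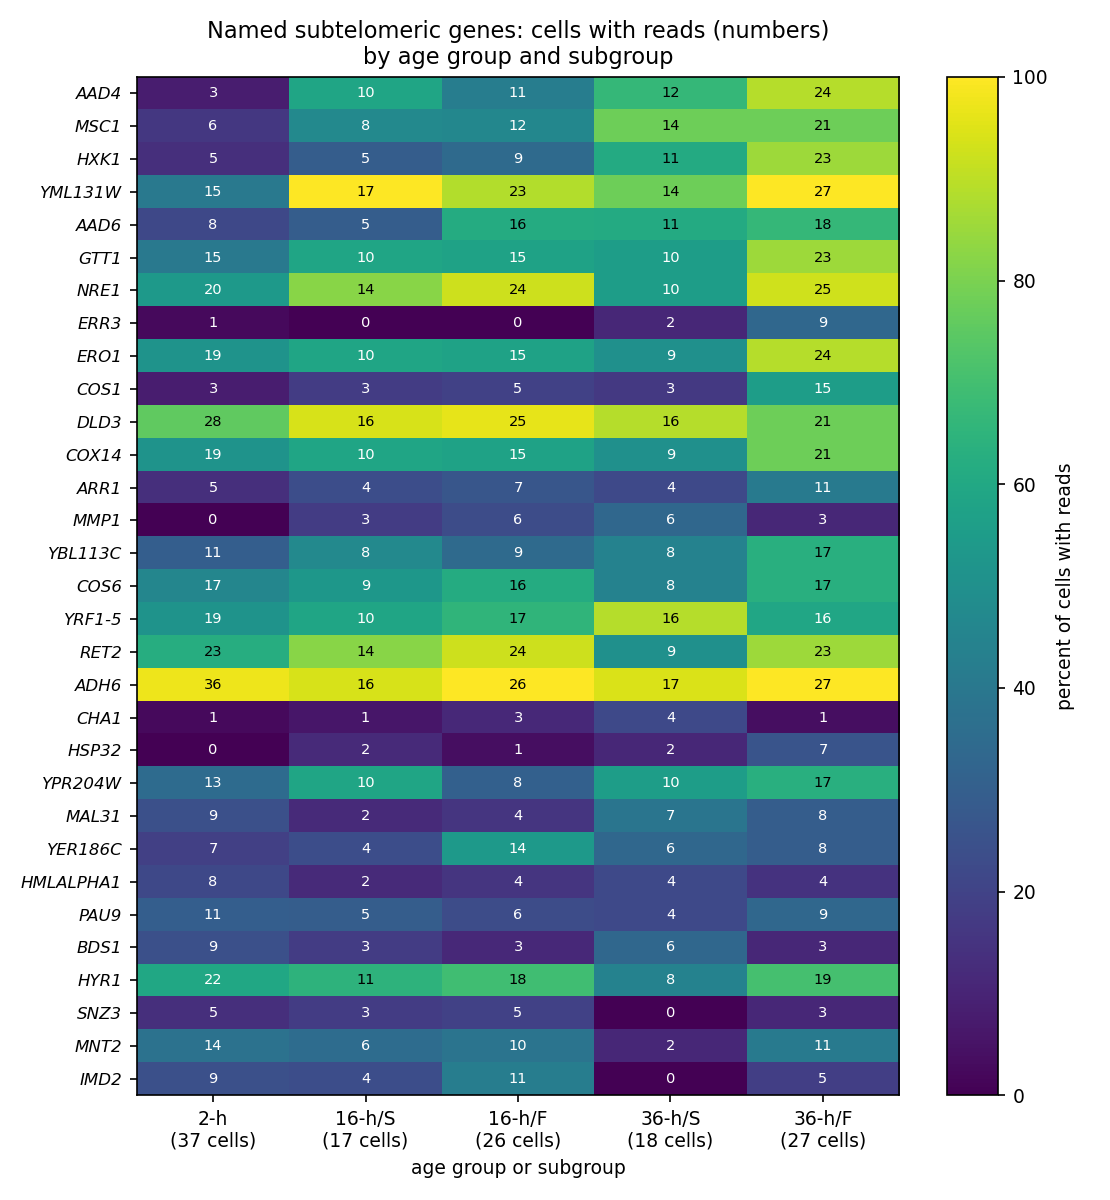
Percent of cells with reads (colour) for 31 named members (vertical axis) in 2-h, 16-h/S, 16-h/F, 36-h/S and 36-h/F cells (horizontal axis), with the number of cells with reads printed in each field. AAD4 has reads in 12 of 18 36-h/S cells, in 24 of 27 36-h/F cells and in 3 of 37 2-h cells.

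Of 20 genes of telomeric silencing and other repression near chromosome ends, SIR2 was detected least widely, in 11.2% of all cells, and ESC1 most widely, in 56%. At 36 h against 2 h none of them differed by at least 1, while 18.3% of all genes were higher and 9.92% lower. The differences of the 20 genes ran from -0.99 for RAP1, just short of the limit, to 0.77 for ESC1. RAP1 had reads in 15 cells at 2 h and 10 at 36 h. Their median difference was 0.22, and that of all genes 0.23. SIR2 had reads in 2, 4 and 8 cells at 2, 16 and 36 h, SIR3 in 12, 9 and 15 and SIR4 in 20, 17 and 22, so that for SIR2 in particular a difference in transcript level was hardly detectable at this depth. At 16 h against 2 h, CYC8 was higher by 1.40, and 8.27% of all genes were higher by at least 1. At 36 h against 16 h, SUM1, CYC8 and RIF1 were lower, with differences of -1.22, -1.09 and -1.05. Of all genes, 6.44% were lower in that comparison. RIF1, a Rap1-binding protein of telomeres, was higher in S than in F cells by 1.07 at 16 h and by 1.08 at 36 h. It had reads in only 6 of 18 S and 7 of 27 F cells at 36 h. RAP1 was lower in S by 1.30 at 16 h (5 S and 14 F cells with reads). At 36 h SAS5, of a histone acetyltransferase at silencing boundaries, was higher in S by 1.30 (6 and 2 cells). ESC1, a nuclear periphery protein, was lower by 1.91 (8 and 19 cells). Of all genes, 3.62% were higher and 11.1% lower in S at 16 h, and 6.35% and 15.5% at 36 h. RPD3, whose far edge lies 19.3 kb from an end, is counted both here and among the members.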

How the data were processed

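The submitters' processing notes name HISAT2 2.1.0 as the aligner, SAMtools 1.1, the R64 genome and featureCounts for counting, whose strand and multiple-position settings are not given in the sources used here. The deposited values are log2 of the normalized count plus 1, where the authors had divided the counts by a DESeq2 size factor of the cell. Of 136 cells listed, 125 had values. After the log2 was undone, all 278228 values above 0 were whole multiples of 1 step per cell (tolerance 0.05), which gave the reads behind them. Reads are not molecules, because Smart-seq2 without molecular identifiers amplifies by PCR, so the exact (Clopper-Pearson) 95% intervals cover counting error only, and the upper limit behind a count of 0 is 3 counts of the total.

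Gene positions, repeated 50-base subsequences, overlaps and sequences came from the RefSeq R64 genome, in which 5693 of the 5997 identifiers were found. No gene given with coordinates overlapped another annotated gene. Age groups came from the labels, and the S and F subgroups, the generations and the ERCC shares from the study's table of cells. Means, SDs among cells, differences of mean log2, probabilities of exceeding and correlations were computed with Python 3.11.15, numpy 2.4.6, pandas 2.3.3 and scipy 1.17.1, without p values, and the procedures were tested on simulated data.

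The members, lists and rules were chosen with earlier results of these data known. The members named were the 10 with reads in most cells, those with the largest differences in each comparison among members found in 20% or more of the cells in one of its groups, the member with reads in most cells of each family of at least 3, and silencing genes past a difference of 1. The alternatives were limits of 10 and 30 kb, cells whose ERCC share was 0.5 or less, thinning to 40000 reads, at least 5 reads for detection, cells with 1500 to 2500 genes detected, genes with reads in at least 10% of cells, leaving out repeated or overlapping genes or the 3 genes with most reads, scaling to the same sum, and the log2 ratio of mean normalized counts.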

Additional observations from a re-analysis of the deposited data

How the results depend on the processing

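The differences in detection, level and reads of members between age groups kept their sign under the alternatives run. Small differences between S and F cells did not. With a limit of 10 kb the 16-h S over F ratio of members per 1000 was 1.05, against 0.983, and that of the percent of reads 1.16, against 0.993, and with cells scaled to the same sum the 36-h S minus F difference in level was -0.05, against 0.00. Of 265 alternative values, 225 moved by less than the spread among cells or by less than 1.5 times, and 40 moved further. Members detected per 1000 genes detected were 1.55 times as many at 36 h as at 2 h, and between 1.31 (limit of 30 kb) and 1.64 times (thinned) under the alternatives. The percent of reads on members was 2.64 times as high at 36 h as at 2 h, and 1.68 times with a limit of 30 kb. The mean level of the members differed by 0.52 at 36 h against 2 h, by 0.32 with a limit of 10 kb, by 0.76 for genes with reads in at least 10% of cells and by 1.12 as a log2 ratio of mean normalized counts. For genes in at least 10% of cells the 16-h against 2-h difference was 0.45, against 0.28, and as log2 ratios the 36-h against 16-h difference was 0.86, against 0.24, and that of 36-h S and F cells 0.48, against 0.00.

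The percent of members past a difference of 1 depended most on the scale. As log2 ratios of mean normalized counts, 49.4% of members were higher and 4.76% lower at 36 h against 2 h (37% and 10.4% of all genes), 19% and 8.33% at 16 h against 2 h (15.8% and 14.8%), and 39.9% and 3.57% at 36 h against 16 h. On that scale 11.3% were higher and 16.7% lower in S than in F cells at 16 h, and 32.7% were higher in S at 36 h. With a limit of 10 kb, 5.80%, 1.45% and 2.90% were higher at 36 h against 2 h, 16 h against 2 h and 36 h against 16 h. Between S and F cells that limit gave 0% higher and 0% lower at 16 h, and 2.90% higher and 5.80% lower at 36 h. With a limit of 30 kb, 2.05%, 1.02% and 2.39% were lower in the 3 comparisons of age and 4.78% lower in S at 16 h. For genes in at least 10% of cells, 22.8%, 14.1% and 10.9% of members were higher in the comparisons of age. In S cells 1.09% were higher and 5.43% lower at 16 h, and 8.70% higher and 15.2% lower at 36 h. The share of all genes under that filter is not given here. Among internal genes too, the share higher at 36 h against 2 h rose with detection. It was 0% for those in under 5% of cells and 26.1% for those in 50% or more. At 36 h against 16 h, 0.595% were lower with cells of low ERCC share or thinned cells and 2.38% with cells scaled to the same sum. Without repeated genes, 0% were higher in S at 16 h and 9.52% at 36 h, and with cells of low ERCC share 1.79% were higher in S at 16 h. Shares given here without that of all genes show only how the share of members moved between alternatives. The cause of these shifts was not tested. Of 465 alternative values of named genes, 29 moved further than the spread among cells. Of the 52 differences of at least 1 among named genes, all 156 alternative values had the same sign and 142 were still at least 1. Scaling to the same sum moved the median of all genes to 0.15 at 36 h against 2 h (0.23 before) and to -0.01 at 36 h against 16 h (0.11 before). No paired analysis was possible because the numbers in the labels name different cells and the results come from no test. Depth limits all shares, since 80.8% of member values were 0.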

Other observations

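Pairs of members were compared across the 45 36-h cells, as a description without a test, since cells share 1 sample and differ in depth. Among the 21 members with reads in most of these cells, the 210 pairs had a median Pearson r of 0.05 and ran from -0.41 to 0.77. The highest pair was YRF1-4 with YRF1-5 (r 0.77, Spearman rho 0.75), whose sequences are near-identical. HXK1 and MSC1, on different chromosomes and without repeated sequence, followed with r 0.75 and rho 0.73, and GTT1 and RET2 had r 0.67. The Y′ genes YLL067C and YPR204W had r 0.59.

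Generation was recorded for each cell within an age group. At 16 h, members per 1000 genes detected had r -0.04 and rho -0.02 with generation over 43 cells, and r -0.05 once the 2 cells with the most extreme generations were left out. At 36 h the values were r -0.27 and rho -0.25 over 45 cells, and r -0.20 without 2 cells. The number of all genes detected had r 0.28 with generation at 16 h and 0.47 at 36 h.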
